A study of Homo sapiens with 32 samples.

Results

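RNA of RPE-1 cells after 10 h of serum was compared with RNA of the same line after 5 h of serum. The libraries were chosen by their labelled assay and time, 4 replicates on each side, which is 8 of the 32 samples of the study. The labels do not say whether replicates were separate cultures, so p-values measure only the spread between these libraries, which may be technical. RPE-1 is an established human line of immortalised retinal pigment epithelial cells, wild type in every sample. All cells had first been held for 18 h without serum, so both groups share that starvation and differ in whether serum was then present for 5 h or 10 h. The study also holds RNA from 0 h and 15 h of serum, and ribosome footprints (the mRNA fragments that ribosomes protect from nuclease) from the same 4 times. No cells were kept without serum for the same hours, so time in serum and time in culture cannot be told apart.

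Serum carries growth factors that switch quiescent cells back toward division. A first wave of transcription factors, cytokines and feedback inhibitors is made early and is short-lived. Cyclin-dependent kinases then inactivate the RB family, E2F factors are released, and genes for DNA replication are transcribed as cells approach S phase. Genes of mitosis follow later and are held down in quiescence by the DREAM complex. Messages of the replication-dependent histones end in a stem-loop instead of a poly(A) tail and accumulate while DNA is being copied. The RNA here was total RNA depleted of ribosomal RNA, with no selection for poly(A) tails named in the labels, so such histone messages could be counted.

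Total counts ran from 595851 to 1020631 per library at 5 h and from 645683 to 1107470 at 10 h, and the 2 groups did not differ in depth beyond their spread (difference of means 96560, exact permutation p = 0.486, two-sided, smallest possible 0.0286). Levels are given in CPM, the counts of a gene relative to the total of its library, with totals scaled by edgeR's TMM factors. Changes are log2 ratios of 10 h over 5 h, n = 4 libraries a group, from edgeR's quasi-likelihood fit to all 16 RNA libraries. Their standard errors were derived as the absolute change divided by the square root of the F statistic of that fit's test. A gene was called when its p adjusted by Benjamini-Hochberg over all 8775 tested genes was under 0.05. All changes are relative to the other genes of a library. The libraries numbered 2 at both times and the library numbered 1 at 10 h stood apart from the others of their group. The chi-square of counts per degree of freedom between replicates reached 11.2 for the pair numbered 1 and 2 at 10 h, against 1.41 for the pair numbered 3 and 4 at 5 h. Of the markers of the labelled cell type, the keratins KRT8 and KRT18 were abundant, with 803 ± 155 and 968 ± 146 CPM at 5 h, whereas RPE65, DCT and TTR, markers of mature pigment epithelium, had 0 counts at both times. Of 15 such markers 12 had counts, 5 were tested, and 2 were called higher at 10 h, the pigment cell factors MITF (1.12 ± 0.33) and OTX2 (1.89 ± 0.60). Neither was called without the 5 h library numbered 4 or without both libraries numbered 2, and 1 of them without the 5 h library numbered 3 or the 10 h library numbered 1, 2 or 4. Summed over 13 blood cell markers the level was 16.1 to 28.5 CPM in these 8 libraries, and 6 of the 13 had 0 counts. Over 10 endothelial and neural markers, of which TEK was the most abundant, it was 38.2 to 52.0 CPM at 5 h and 28.2 to 74.3 CPM at 10 h, and the part of such cells in the results was not tested.

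Between 5 h and 10 h of serum, most genes listed for DNA replication, chromatin and mitosis rose, and most tested cytokines and NF-kB genes fell. Only 9 of 28 listed cytokines were tested, and a member that passed the filter on low counts only through 5 h had to fall. Of growth factor feedback regulators 7 of 14 fell, of ER genes 14 of 33, of amino acid response genes 10 of 25 and of cholesterol genes 9 of 23, and most others of these lists were not called. Of 8775 tested genes 1726 were called (19.7%), 887 of them higher at 10 h (10.1%) and 839 lower (9.56%). Rises were larger than falls: 251 called genes had risen over 4-fold and 45 had fallen over 4-fold, and beyond 8-fold the counts were 110 and 9. The median log2 change of all tested genes was -0.06. Leaving out the 5 h library numbered 3 gave 831 higher and 527 lower, and leaving out both libraries numbered 2 gave 800 and 519, so the number of falls depended on these libraries more than the number of rises did. Where a list is given below with members called in 1 direction and 0 in the other, that 0 also held at an unadjusted p under 0.05 in edgeR. It held in DESeq2 too, there at an adjusted p under 0.05.

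**Figure D1:**
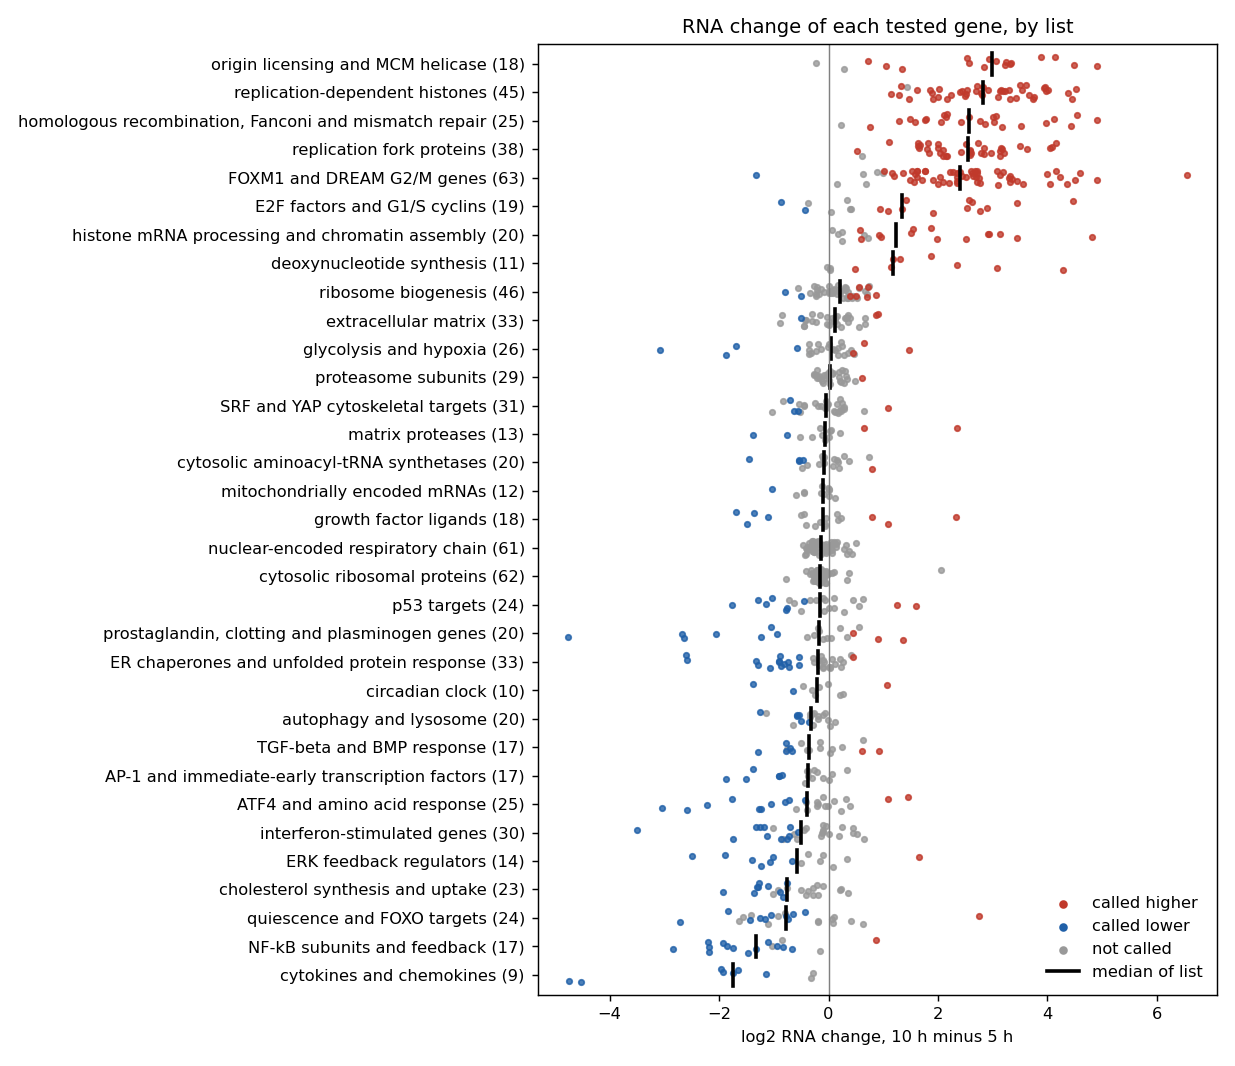
Each point is the log2 RNA change (10 h minus 5 h, horizontal axis) of 1 tested gene, arranged by gene list with the number of tested members in brackets. Red points were called higher, blue points called lower and grey points not called, and the black bar is the median of the list. Lists of replication, histones and mitosis lie to the right, with medians up to 2.997, and cytokines and NF-kB genes lie to the left, with medians of -1.74 and -1.32.

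The steepest rises belonged to replication and division genes. ORC1 (ENSG00000085840), the large subunit of the origin recognition complex, had 6.90, 5.01, 0 and 4.33 CPM at 5 h and 123, 134, 108 and 119 CPM at 10 h. Every library at 10 h stood far above every library at 5 h, a 30.1-fold rise (log2 change 4.91 ± 0.31, adjusted p = 5.95e-11). MCM10, which loads factors onto the unwinding helicase, had 3.45, 5.01, 5.89 and 9.74 CPM at 5 h and 155, 125, 144 and 152 CPM at 10 h. Its groups were as far apart (22.6-fold, log2 change 4.50 ± 0.23, adjusted p = 2.14e-12). EXO1, a DNA exonuclease of mismatch and break repair, had 18.98, 5.01, 4.71 and 3.25 CPM at 5 h and 199, 141, 151 and 177 CPM at 10 h. The 5 h library numbered 1 was the highest of its group but still below all 10 h libraries (23.4-fold, log2 change 4.55 ± 0.29, adjusted p = 5.95e-11). MYBL2, a transcription factor that helps switch on mitotic genes, had 5.18, 8.02, 2.35 and 9.74 CPM at 5 h and 132, 248, 87.4 and 132 CPM at 10 h. Its 10 h libraries differed among themselves by more than those of MCM10, with the library numbered 2 highest, and did not overlap the 5 h group (22.7-fold, log2 change 4.50 ± 0.43, adjusted p = 1.68e-07). NUF2, a kinetochore subunit, had 0 counts in all 4 libraries at 5 h and 21.5, 3.84, 9.37 and 17.1 CPM at 10 h. Against the limit that 3 counts over the 5 h group would give, 0.885 CPM, its level at 10 h was at least 14.6-fold higher. Other genes among the 15 largest rises were XRCC2, of homologous recombination, with 3 counts in all at 5 h and a mean of 31.1 ± 3.59 CPM at 10 h, the spindle checkpoint kinase TTK (4.90 ± 0.56), the histone chaperone ASF1B (4.81 ± 0.40), SHCBP1 (4.59 ± 0.24), the mitotic helicase-like ERCC6L (4.48 ± 0.41), cyclin A2, the linker histone gene H1-5, the histone gene H2AC14, the Fanconi pathway ubiquitin conjugating enzyme UBE2T (4.44 ± 0.33) and the identifier ENSG00000274267, which has no symbol in the tables used and rose from 49.1 ± 7.49 to 1477 ± 278 CPM.

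**Figure D2:**
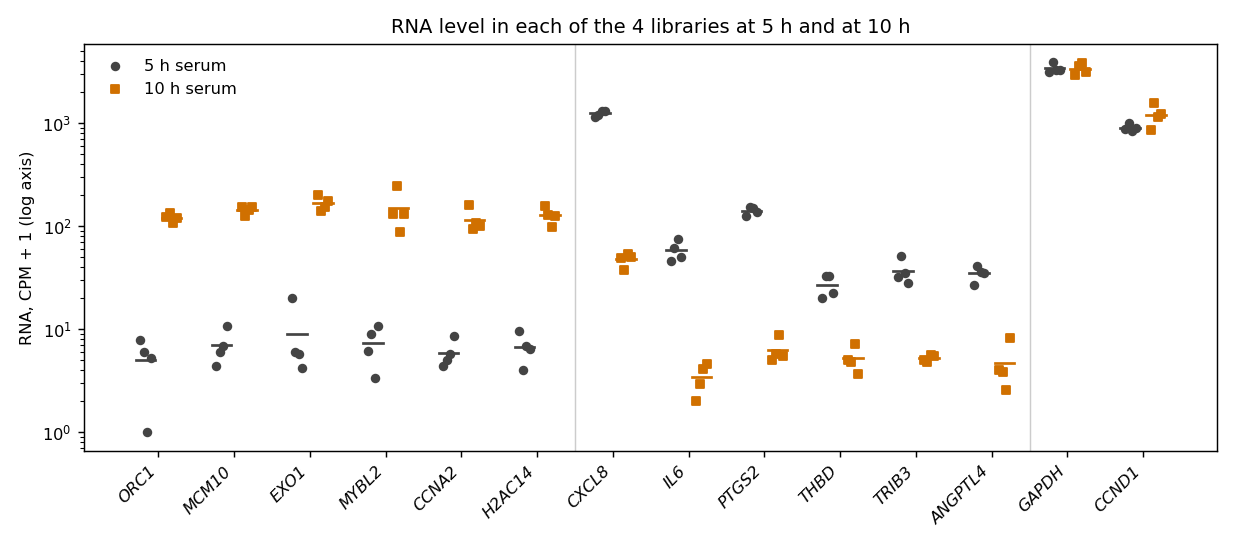
RNA level in CPM plus 1 on a log axis for 6 of the genes with the largest rises, 6 with large falls, and GAPDH and CCND1. Grey circles are the 4 libraries at 5 h, orange squares the 4 at 10 h, and horizontal bars their means. The 2 groups are separate for the first 12 genes and overlap for GAPDH and CCND1.

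Origin licensing, the loading of the MCM helicase onto replication origins, rose almost as a whole. Of 18 tested members of the list 16 were called higher and 0 lower, with a median log2 change of 2.997 against -0.06 for all genes. Besides ORC1 and MCM10 these included CDC6, which loads the helicase with CDT1, and ORC6. CDC6 had 37.95, 12.03, 20.02 and 32.5 CPM at 5 h and 435, 314, 343 and 366 CPM at 10 h. All libraries at 10 h stood far above all libraries at 5 h, and the rise was 14.7-fold (log2 change 3.88 ± 0.22, adjusted p = 9.31e-12). ORC6 had 17.3, 3.01, 5.89 and 15.1 CPM at 5 h and 219, 118, 187 and 166 CPM at 10 h, a clear separation of the groups (log2 change 4.13 ± 0.33, adjusted p = 3.75e-09). Of the 6 subunits of the MCM2-7 ring the changes lay close together, from 2.53 for MCM6 to 3.33 for MCM4. The origin complex itself was uneven: ORC1 and ORC6 were among the 4 largest rises of the list, while ORC2 (0.28 ± 0.18) and ORC4 (-0.23 ± 0.26) were not called. Geminin (GMNN), the inhibitor of CDT1, rose as well (2.93 ± 0.24).

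Proteins that act at the replication fork changed in the same direction. Of 38 tested members 37 were called higher and 0 lower (median 2.55), the exception being RPA3 (0.61 ± 0.25), which was called higher without the 10 h library numbered 2 (adjusted p = 0.0370). CDC45, which joins MCM2-7 in the active helicase, had 0, 3.01, 5.89 and 11.9 CPM at 5 h and 109, 111, 99.9 and 91.9 CPM at 10 h. All 4 values at 10 h were within a narrow band, far above the highest value at 5 h (log2 change 4.16 ± 0.32, adjusted p = 1.58e-09). PCNA, the sliding clamp that holds polymerases on DNA, was the most abundant of the group with 162, 88.2, 126 and 159 CPM at 5 h and 1535, 967, 1200.4 and 1039 CPM at 10 h (8.91-fold, log2 change 3.15 ± 0.20, adjusted p = 5.95e-11). Clamp loader subunits rose unequally, RFC3 most (4.09 ± 0.29) and the large subunit RFC1 least (1.10 ± 0.22). GINS2 of the helicase (4.06 ± 0.24) and POLA2 of the primase complex (3.63 ± 0.20) were the other 2 of the 4 largest rises beside CDC45 and RFC3. POLD2, a subunit of polymerase delta, had the smallest called rise (0.52 ± 0.14).

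The E2F family binds short elements related to TTTCCCGC, TTTCGCGC, TTTGGCGC or TTTGCCGC, often close to the start of replication genes. In RefSeq promoters of build GRCh38.p14, from 250 bases before to 50 after the start, at least 1 of these on either strand was found in 8 of 16 licensing genes (50%) and 11 of 31 fork genes (35.5%), in 13.96% of genes called higher, in 3.03% of genes called lower and in 6.01% of all 7291 tested genes with a promoter. The following are the 100 bases before the start of 5 members called higher whose match lay wholly in that stretch. They run 5′ to 3′ on the gene's strand, with the matches in capitals. The match began 55 bases before the start in RFC3 and 31 bases before it in GINS2. A match in this stretch was required, so its nearness to the start is not a result. The 5 genes were chosen after the values were seen.
RFC3 (chr13:33818049-33818148, plus strand): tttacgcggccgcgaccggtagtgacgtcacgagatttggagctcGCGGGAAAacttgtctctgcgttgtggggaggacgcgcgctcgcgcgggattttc
GINS2 (chr16:85688955-85689054, minus strand): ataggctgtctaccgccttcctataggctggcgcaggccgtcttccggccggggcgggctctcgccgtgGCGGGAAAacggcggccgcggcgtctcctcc
POLA2 (chr11:65261862-65261961, plus strand): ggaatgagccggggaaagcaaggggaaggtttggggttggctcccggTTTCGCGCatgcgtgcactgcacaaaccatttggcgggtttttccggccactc
CDT1 (chr16:88803689-88803788, plus strand): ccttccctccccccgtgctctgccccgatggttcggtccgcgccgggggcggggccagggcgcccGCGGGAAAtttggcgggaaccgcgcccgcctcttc
MCM6 (chr2:135876444-135876543, minus strand): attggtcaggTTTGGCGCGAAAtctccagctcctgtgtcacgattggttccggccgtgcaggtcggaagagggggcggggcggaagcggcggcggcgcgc
In MCM6 the capitals are 2 overlapping matches on opposite strands. These 5 genes rose by log2 changes of 4.09, 4.06, 3.63, 3.07 and 2.53. A match describes the letters only.

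Enzymes that make deoxynucleotides, the building blocks of DNA, rose in 8 of 11 tested members and fell in 0 (median 1.18). RRM2, the small subunit of ribonucleotide reductase, had 1.73, 4.01, 0 and 2.16 CPM at 5 h and 53.3, 51.9, 37.5 and 29.7 CPM at 10 h (log2 change 4.28 ± 0.41, adjusted p = 3.60e-08), so it was near the lower limit of detection at 5 h and clearly present at 10 h. Its partner RRM1 changed less, with 10.4, 7.02, 4.71 and 5.41 CPM at 5 h and 50.2, 24.03, 34.3 and 28.8 CPM at 10 h (log2 change 2.35 ± 0.33, adjusted p = 1.33e-05). Thymidylate synthase (TYMS) had 6.90, 5.01, 2.35 and 7.57 CPM at 5 h and 37.9, 69.2, 37.5 and 39.6 CPM at 10 h, with the 10 h library numbered 2 above the other 3 (log2 change 3.08 ± 0.37, adjusted p = 1.50e-06). Thymidine kinase TK1 rose from 13.2 ± 3.85 to 50.6 ± 7.96 CPM (log2 change 1.88 ± 0.24, adjusted p = 3.32e-06). The remaining 3 members were not called.

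Among E2F factors and G1/S cyclins the members divided. Of 19 tested 12 were called higher and 2 lower (median 1.35). CCNA2, the S-phase cyclin A2, had 3.45, 4.01, 4.71 and 7.57 CPM at 5 h and 161, 92.3, 108 and 99.99 CPM at 10 h. Its lowest value at 10 h was far above the highest at 5 h (22.2-fold, log2 change 4.47 ± 0.29, adjusted p = 7.06e-11). Cyclin E2 (CCNE2), partner of CDK2 at the G1/S transition, had 17.3, 9.02, 29.4 and 33.5 CPM at 5 h and 204, 73.999, 81.2 and 157 CPM at 10 h. The 10 h libraries fell into 2 levels, numbers 1 and 4 above numbers 2 and 3, all above the 5 h group (log2 change 2.53 ± 0.38, adjusted p = 4.61e-05). CDK2 itself had 15.5, 15.04, 16.5 and 19.5 CPM at 5 h and 125, 116, 114 and 105 CPM at 10 h, with little spread in either group (6.84-fold, log2 change 2.78 ± 0.17, adjusted p = 3.18e-11). E2F1 had 62.1, 35.1, 32.97 and 33.5 CPM at 5 h and 216, 271, 295 and 207 CPM at 10 h, where the 5 h library numbered 1 was high but no library overlapped (log2 change 2.63 ± 0.22, adjusted p = 6.06e-09). UHRF1, which maintains DNA methylation at the fork, and FBXO5, an inhibitor of the anaphase-promoting complex, rose by 3.45 ± 0.45 and 2.89 ± 0.24. Cyclin D1 (CCND1), which senses growth factors earlier in G1, was already at 903 ± 64.1 CPM at 5 h and had 1206 ± 298 CPM at 10 h, with overlapping libraries and no call (log2 change 0.42 ± 0.18, adjusted p = 0.119). Without the 10 h library numbered 1 it was called higher (adjusted p = 0.0181). CDK6, the partner of D-type cyclins, had 43.1, 47.1, 56.5 and 42.2 CPM at 5 h and 24.6, 40.4, 18.7 and 18.02 CPM at 10 h and fell (log2 change -0.87 ± 0.23, adjusted p = 0.00876), a call that was lost without the 5 h library numbered 3 (adjusted p = 0.0528), when 0 of the list were called lower. The other fall, RBL2 (log2 change -0.43 ± 0.15, adjusted p = 0.043), was lost with any 1 of the 8 libraries left out, with adjusted p up to 0.234 over all alternatives.

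Homologous recombination, Fanconi anaemia and mismatch repair genes, which protect and mend replicating DNA, rose in 24 of 25 tested members and fell in 0 (median 2.58). The helicase BLM had 3.45, 2.01, 5.89 and 4.33 CPM at 5 h and 101, 48.1, 71.8 and 59.5 CPM at 10 h, with groups far apart (log2 change 4.12 ± 0.34, adjusted p = 4.52e-09). BRCA1 (2.42 ± 0.28), BRCA2 (3.17 ± 0.40) and FANCD2 (3.01 ± 0.25) rose by 2 log2 units or more, and the helicase WRN was the member not called (0.24 ± 0.21). Fold changes of the lowest of these genes rest on few counts at 5 h.

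Replication-dependent histone genes rose in 44 of 45 tested members and fell in 0 (median 2.83). Of 64 listed members 59 were in the count table, and 45 of these passed the filter on low counts. A member that passed only through high counts at 10 h had to rise, so the count and the median partly reflect the filter. Which members passed in this way was not tested. The whole list took 0.344% to 0.415% of counts in the 5 h libraries and 1.77% to 2.57% in the 10 h libraries. H2AC14 had 8.63, 3.01, 5.89 and 5.41 CPM at 5 h and 156, 129, 98.3 and 124 CPM at 10 h, without overlap (22.96-fold, log2 change 4.52 ± 0.25, adjusted p = 9.31e-12). H1-5, a linker histone that sits between nucleosomes, had 24.2, 34.1, 17.7 and 22.7 CPM at 5 h and 542, 709, 469.9 and 453 CPM at 10 h (21.7-fold, log2 change 4.44 ± 0.19, adjusted p = 1.46e-13). H2AC16 (4.38 ± 0.27) and H2BC14 (4.01 ± 0.38) were next. The smallest rise was that of H4C5, which was already high at 636 ± 71.4 CPM at 5 h and reached 1404 ± 373 CPM (1.14 ± 0.15). Histone genes are near-identical copies of one another, and how shared reads were assigned is not given in the sources used here, so values of single copies are less certain than the sum.

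The box CCAAT, bound by the factor NF-Y, was present on either strand in the promoters of 36 of 41 histone genes (87.8%) against 37.4% of all tested genes, 49.5% of those called higher and 38.9% of those called lower. On the gene's own strand and starting 50 to 85 bases before the start, a window chosen after seeing the matches, it was found in 32 of 41 histone genes (78.0%) and in 7.71% of all tested genes. By class these were 5 of 5 linker histone genes, 11 of 12 H2A, 12 of 14 H2B, 4 of 5 H3 and 0 of 5 H4 genes. The 100 bases before the start are shown for 3 genes that share this spacing. They are among the 4 tested members of the histone list with the largest rise. CCAAT or its reverse ATTGG is in capitals.
H1-5 (chr6:27867589-27867688, minus strand): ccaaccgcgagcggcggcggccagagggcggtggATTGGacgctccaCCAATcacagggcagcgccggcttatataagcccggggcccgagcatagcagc
H2AC16 (chr6:27865217-27865316, plus strand): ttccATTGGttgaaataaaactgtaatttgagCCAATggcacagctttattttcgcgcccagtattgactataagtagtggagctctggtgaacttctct
H2BC14 (chr6:27814922-27815021, plus strand): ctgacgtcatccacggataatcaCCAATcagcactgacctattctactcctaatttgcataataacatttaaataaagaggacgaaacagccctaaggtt

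Factors that process histone messages and assemble chromatin behind the fork rose in 14 of 20 tested members and fell in 0 (median 1.23). ASF1B, a histone H3-H4 chaperone, had 0, 0, 3.53 and 3.25 CPM at 5 h and 48.1, 62.5, 60.9 and 45.9 CPM at 10 h. At 5 h it was at 0 in 2 libraries (log2 change 4.81 ± 0.40, adjusted p = 3.97e-09). CHAF1A, the large subunit of chromatin assembly factor CAF-1, rose from 18.8 ± 7.16 to 142 ± 33.4 CPM (log2 change 2.93 ± 0.29, adjusted p = 5.84e-08), and the chromatin remodeller HELLS from 23.1 ± 8.38 to 202 ± 53.1 CPM (log2 change 3.13 ± 0.29, adjusted p = 2.93e-08). SLBP, the protein that binds the histone stem-loop, rose less (1.51 ± 0.16), while the cleavage factor subunit CPSF2 (0.25 ± 0.15) was not called.

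Genes of G2 and mitosis under FOXM1 and the DREAM complex rose in 57 of 63 tested members and fell in 1 (median 2.39). CDK1, the mitotic kinase, had 6.90, 6.02, 7.06 and 11.9 CPM at 5 h and 244, 75.9, 112 and 89.2 CPM at 10 h. The 10 h library numbered 1 was well above the other 3, and the groups did not overlap (15.9-fold, log2 change 3.99 ± 0.43, adjusted p = 8.13e-07). Cyclin B1 (CCNB1) had 75.9, 46.1, 63.6 and 68.2 CPM at 5 h and 211, 159, 186 and 154 CPM at 10 h, a smaller rise from a higher start (log2 change 1.49 ± 0.20, adjusted p = 5.20e-06). MKI67, the Ki-67 proliferation marker, had 5.18, 4.01, 4.71 and 3.25 CPM at 5 h and 27.7, 33.6, 23.4 and 27.02 CPM at 10 h (log2 change 2.71 ± 0.36, adjusted p = 5.82e-06). TTK had 6.90, 3.01, 1.18 and 3.25 CPM at 5 h and 195, 35.6, 84.3 and 96.4 CPM at 10 h, spread over 5-fold among the 10 h libraries (log2 change 4.90 ± 0.56, adjusted p = 2.43e-06), and SHCBP1 had 5.18, 7.02, 3.53 and 8.65 CPM at 5 h and 158, 169, 136 and 151 CPM at 10 h. FOXM1 itself was not called (log2 change 0.99 ± 0.37, adjusted p = 0.0681), but was with no filter on low counts (adjusted p = 0.0449) and with only the 8 libraries compared (adjusted p = 0.0241). The one member called lower was LIN37, a subunit of DREAM (log2 change -1.33 ± 0.39, adjusted p = 0.0174), and it was not called without the library numbered 2 of either time (adjusted p up to 0.218 over all alternatives). Leaving out both libraries numbered 2 and the 10 h library numbered 1 did not move the count of members called higher by over 1.5 times in this list or in the lists of licensing, fork, repair and histone genes.

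Many mitotic promoters carry a cell cycle homology region (CHR), TTTGAA or TTCGAA, to which DREAM binds. It occurred on either strand in 40 of 56 promoters of this list (71.4%), in 22.3% of genes called higher, 7.80% of those called lower and 11.2% of all tested genes. The 4 members below had the largest changes among those with a match wholly within 100 bases before the start and are shown to place it, matches in capitals.
CDCA8 (chr1:37692416-37692515, plus strand): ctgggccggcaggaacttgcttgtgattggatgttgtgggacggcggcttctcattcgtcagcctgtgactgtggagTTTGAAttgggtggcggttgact
CDC20 (chr1:43358881-43358980, plus strand): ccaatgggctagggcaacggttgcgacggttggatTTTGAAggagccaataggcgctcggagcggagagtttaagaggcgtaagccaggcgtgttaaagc
CKAP2L (chr2:112764610-112764709, minus strand): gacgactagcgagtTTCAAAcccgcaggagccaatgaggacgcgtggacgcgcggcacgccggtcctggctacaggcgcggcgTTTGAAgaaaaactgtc
ANLN (chr7:36389762-36389861, plus strand): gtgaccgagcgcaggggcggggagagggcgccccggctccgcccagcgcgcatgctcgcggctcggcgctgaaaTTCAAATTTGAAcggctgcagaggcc
CDCA8, a subunit of the chromosomal passenger complex, rose by 4.35 ± 0.36, the anaphase activator CDC20 by 4.05 ± 0.34, CKAP2L by 3.35 ± 0.46 and the cytokinesis scaffold ANLN by 3.13 ± 0.29. CKAP2L and ANLN each hold 2 matches.

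**Figure D3:**
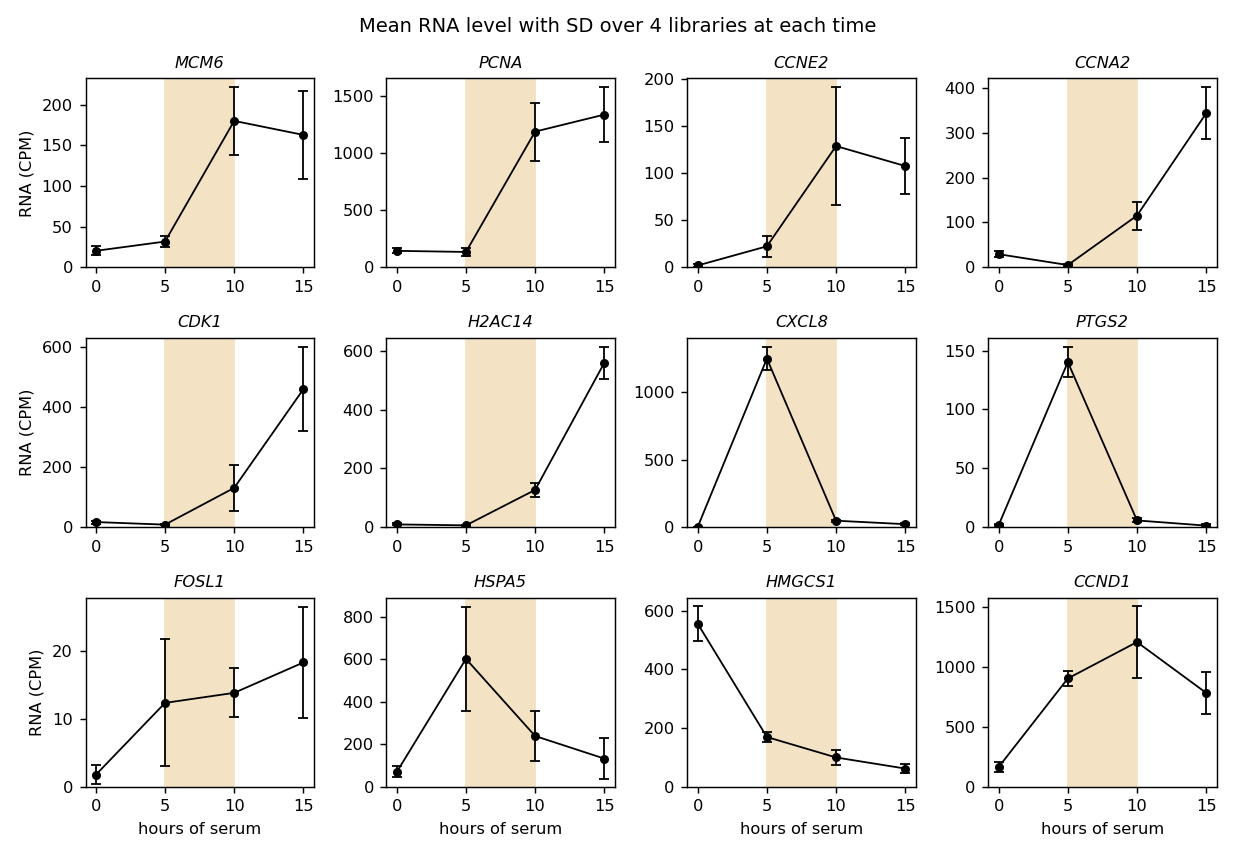
Mean RNA level in CPM (vertical axes, differing in range) against hours of serum for 12 genes, with SD over 4 libraries as error bars and the span from 5 h to 10 h shaded. MCM6 and CCNE2 had their highest mean at 10 h, CCNA2, CDK1 and H2AC14 were higher again at 15 h, and CXCL8 and PTGS2 had their highest mean at 5 h.

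Beside the 0 h and 15 h libraries, 2 kinds of rise were visible in the means. The first kind had its highest mean at 10 h. CDC6 stood at 7.80 ± 1.61, 25.6 ± 11.8, 365 ± 51.6 and 286 ± 6.40 CPM at 0 h, 5 h, 10 h and 15 h, and ORC1 at 13.8 ± 4.64, 4.06 ± 2.92, 121 ± 10.7 and 76.8 ± 6.80 CPM. The second kind had a higher mean again at 15 h. H1-5 stood at 50.4 ± 7.13, 24.7 ± 6.88, 543 ± 117 and 2757 ± 277 CPM, and CDK1 at 16.5 ± 5.18, 7.97 ± 2.66, 130.3 ± 77.1 and 458 ± 140.2 CPM. At 5 h CDK1, H1-5 and also ORC1 of the first kind were below their 0 h mean. Their rise to 10 h thus started from the lowest of the 4 times, which does not separate the 2 kinds. These comparisons share libraries with the one described here and are given as levels, with no test.

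Cytokines had the lowest median of the lists. Of 28 listed members 9 passed the filter on low counts and were tested. Of these 9, 7 were called lower and 0 higher, with a median of -1.74. A member that passed only through high counts at 5 h had to fall, so the count and the median partly reflect the filter. Which members passed in this way was not tested. With the stricter filter 5 were tested and 4 were called lower. CXCL8 (ENSG00000169429), the neutrophil chemokine interleukin-8, had 1158, 1195, 1314 and 1326 CPM at 5 h and 48.1, 36.5, 53.1 and 49.5 CPM at 10 h. It was among the abundant messages at 5 h and its groups were far apart, a 26.8-fold fall (log2 change -4.74 ± 0.20, adjusted p = 1.46e-13). IL6, interleukin-6, had 44.9, 61.2, 74.2 and 49.8 CPM at 5 h and 1.02, 1.92, 3.12 and 3.60 CPM at 10 h (22.9-fold lower, log2 change -4.52 ± 0.40, adjusted p = 1.06e-08), from 9 counts in all at 10 h. LIF, another cytokine of the interleukin-6 family, had 65.6, 125, 101 and 84.4 CPM at 5 h and 14.3, 28.8, 29.7 and 25.2 CPM at 10 h. IL33, an alarmin held in the nucleus, had 34.5, 18.05, 51.8 and 51.9 CPM at 5 h and 13.3, 6.73, 9.37 and 10.8 CPM at 10 h. Neither overlapped between the times (LIF -1.96 ± 0.23, IL33 -1.94 ± 0.34). CSF1 (-0.32 ± 0.39), a growth factor of macrophages, was 1 of the 2 members not called.

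NF-kB subunits and their feedback genes fell in 13 of 17 tested members and rose in 1 (median -1.32). BIRC3, an inhibitor of apoptosis induced by NF-kB, had 27.6, 58.2, 58.9 and 59.5 CPM at 5 h and 9.22, 7.69, 6.24 and 5.40 CPM at 10 h, where the 5 h library numbered 1 was low but above all 10 h values (log2 change -2.83 ± 0.31, adjusted p = 2.55e-07). The subunit RELB had 39.7, 81.2, 49.5 and 44.4 CPM at 5 h and 10.2, 14.4, 12.5 and 9.91 CPM at 10 h (log2 change -2.20 ± 0.28, adjusted p = 3.20e-06). NFKB2 had 65.6, 128, 69.5 and 57.3 CPM at 5 h and 15.4, 22.1, 14.05 and 18.02 CPM at 10 h, the 5 h library numbered 2 being highest (log2 change -2.19 ± 0.35, adjusted p = 6.92e-05). IRAK2, a kinase of interleukin-1 signalling, fell by a similar amount (-2.19 ± 0.30). The member that rose, TRAF2, had 15.5, 26.1, 20.02 and 14.1 CPM at 5 h and 34.8, 35.6, 39.03 and 32.4 CPM at 10 h (log2 change 0.87 ± 0.26, adjusted p = 0.0199), a call lost without the 5 h library numbered 4 (adjusted p = 0.0808). The NF-kB motif was found on either strand in 5 of 14 promoters of this list (35.7%), in 14.7% of genes called lower, 11.1% of those called higher and 12.8% of all tested genes. For 4 genes with a match wholly in the 100 bases before the start, these bases are shown with matches in capitals. IL6 is from the cytokine list and the other 3 are the NF-kB list members with a match in this stretch.
IL6 (chr7:22727100-22727199, plus strand): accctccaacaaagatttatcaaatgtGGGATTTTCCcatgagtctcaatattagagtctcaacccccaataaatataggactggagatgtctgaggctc
TNFAIP3 (chr6:137867159-137867258, plus strand): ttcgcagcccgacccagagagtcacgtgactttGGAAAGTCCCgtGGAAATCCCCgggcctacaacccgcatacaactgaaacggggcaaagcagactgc
NFKBIA (chr14:35404750-35404849, minus strand): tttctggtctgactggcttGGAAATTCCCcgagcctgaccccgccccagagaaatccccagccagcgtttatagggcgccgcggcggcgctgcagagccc
NFKB1 (chr4:102501259-102501358, plus strand): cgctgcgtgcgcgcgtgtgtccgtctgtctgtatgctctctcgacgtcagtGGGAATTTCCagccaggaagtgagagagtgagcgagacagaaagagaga
TNFAIP3, a ubiquitin-editing inhibitor of the pathway, holds 2 matches and had 17.3, 42.1, 18.8 and 25.96 CPM at 5 h and 5.12, 2.88, 10.9 and 9.91 CPM at 10 h (log2 change -1.93 ± 0.40, adjusted p = 0.00103). It was not called without both libraries numbered 2 and the 10 h library numbered 1 (adjusted p = 0.158). NFKBIA, the inhibitor that retains NF-kB in the cytoplasm, had 116, 156, 173 and 141 CPM at 5 h and 44.04, 46.1, 49.95 and 36.9 CPM at 10 h (log2 change -1.74 ± 0.19, adjusted p = 2.36e-07). The subunit gene NFKB1 fell from 272 ± 61.5 to 109 ± 21.6 CPM (log2 change -1.32 ± 0.18, adjusted p = 6.39e-06).

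Prostaglandin, clotting and plasminogen genes were mixed: of 20 tested members 7 fell and 3 rose (median -0.18). Among all tested genes 9.56% fell and 10.1% rose. PTGS2, the inducible cyclooxygenase that makes prostaglandins, had 124, 152, 148 and 136 CPM at 5 h and 4.10, 4.81, 7.81 and 4.50 CPM at 10 h. The fall of 26.995-fold was without overlap (log2 change -4.75 ± 0.29, adjusted p = 3.18e-11). SERPINB2, an inhibitor of plasminogen activators, had 1187, 1612, 1376 and 1538 CPM at 5 h and 183, 226, 212 and 295 CPM at 10 h and so stayed abundant after a 6.23-fold fall (log2 change -2.64 ± 0.15, adjusted p = 1.07e-11). THBD, the thrombin receptor thrombomodulin, had 18.98, 32.1, 31.8 and 21.6 CPM at 5 h and 4.10, 3.84, 6.24 and 2.70 CPM at 10 h (log2 change -2.68 ± 0.44, adjusted p = 8.12e-05). PLAUR, the urokinase receptor, fell by 1.23 ± 0.12 on the log2 scale. The matrix glycoprotein THBS1 rose from 1924 ± 353 to 3610.04 ± 888 CPM (log2 change 0.91 ± 0.22, adjusted p = 0.00605). The other 2 rises depended on single libraries: SERPINE2 (0.44 ± 0.13) was not called without the 5 h library numbered 3, and PTGER4 (1.36 ± 0.39) not without the library numbered 2 or 4 at 5 h or 2 at 10 h, with adjusted p up to 0.204 and 0.220 over all alternatives.

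Outside the lists, the largest fall was that of SHC4, an adaptor of receptor tyrosine kinases, with 51.8, 73.2, 106 and 72.5 CPM at 5 h and 0, 1.92, 7.81 and 0.901 CPM at 10 h (33.3-fold lower, log2 change -5.06 ± 0.47, adjusted p = 2.41e-08) from 8 counts in all at 10 h. ABCA6 and ABCA8, transporters of the same subfamily, fell as well (-3.04 ± 0.44 and -2.89 ± 0.26). NNMT, nicotinamide N-methyltransferase, had 157, 171, 155 and 142 CPM at 5 h and 24.6, 20.2, 26.5 and 27.02 CPM at 10 h, with low spread in both groups (log2 change -2.67 ± 0.17, adjusted p = 6.14e-11). PPP1R3B, a glycogen-targeting phosphatase subunit, fell to a mean of 1.49 ± 1.32 CPM (log2 change -2.84 ± 0.56, adjusted p = 6.69e-04), a call lost without both libraries numbered 2 and the 10 h library numbered 1 (adjusted p = 0.0927). The AP-1 element TGANTCA, the site of FOS and JUN dimers, was held by 6.65% of promoters of genes called lower, 2.68% of those called higher and 4.27% of all. It is shown in capitals for SHC4 in the 100 bases before the start, and for CXCL8 in the stretch from 150 to 51 bases before it.
SHC4 (chr15:48963920-48964019, minus strand): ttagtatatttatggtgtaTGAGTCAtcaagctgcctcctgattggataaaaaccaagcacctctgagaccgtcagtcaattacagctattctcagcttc
CXCL8 (chr4:73740419-73740518, plus strand): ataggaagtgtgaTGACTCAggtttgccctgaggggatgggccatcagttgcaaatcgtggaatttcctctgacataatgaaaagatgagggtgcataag

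Most tested AP-1 and immediate-early factors were not called in RNA. Of 33 listed members 17 passed the filter on low counts and were tested, and the others are not described by this fit. Of the 17 tested members 6 were called lower and 0 higher (median -0.38). In the deeper footprint libraries 19 of 29 were called lower and 5 higher (median -0.75), where 30.7% and 31% of all genes tested there were. The small MAF protein MAFF had 20.7, 39.1, 30.6 and 25.96 CPM at 5 h and 7.17, 2.88, 12.5 and 10.8 CPM at 10 h (log2 change -1.87 ± 0.33, adjusted p = 1.84e-04) and JUNB had 84.5, 167, 85.95 and 102 CPM at 5 h and 27.7, 46.1, 32.8 and 46.8 CPM at 10 h (log2 change -1.51 ± 0.24, adjusted p = 4.28e-05), each without overlap. BHLHE40, a repressor that also acts in the circadian clock, fell by 1.38 ± 0.33 on the log2 scale. MYC, which drives growth and ribosome production, had 135, 143, 104 and 120.1 CPM at 5 h and 83.98, 114, 93.7 and 92.8 CPM at 10 h, overlapping ranges and no call (log2 change -0.38 ± 0.17, adjusted p = 0.135). JUN (-0.22 ± 0.29) and FOSL1 (0.06 ± 0.43) were also not called. The groups of these 3 genes are not shown to differ by this fit.

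ERK feedback regulators, phosphatases and inhibitors that growth factor signalling induces against itself, fell in 7 of 14 tested members and rose in 1 (median -0.58). DUSP5, a nuclear phosphatase of ERK, had 84.5, 131, 111 and 78.97 CPM at 5 h and 15.4, 16.3, 15.6 and 23.4 CPM at 10 h (5.66-fold, log2 change -2.50 ± 0.25, adjusted p = 9.64e-08). SPRY2, a Sprouty inhibitor, had 128, 185, 171 and 169 CPM at 5 h and 39.9, 44.2, 46.8 and 45.9 CPM at 10 h, the 10 h values lying within a few CPM of each other (log2 change -1.89 ± 0.16, adjusted p = 4.71e-09). DUSP6 (-1.39 ± 0.21) and DUSP1 (-1.23 ± 0.20) fell less. LRIG3 went the other way, with 31.1, 23.1, 38.9 and 47.6 CPM at 5 h and 126, 96.1, 117 and 109 CPM at 10 h (log2 change 1.66 ± 0.20, adjusted p = 1.28e-06).

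Called growth factor ligands went in both directions. Of 18 tested members 4 fell and 3 rose (median -0.11), where 9.56% of all tested genes fell and 10.1% rose. These counts rest on few genes. VEGFA had 167, 257, 226 and 202 CPM at 5 h and 48.1, 70.2, 88.98 and 60.4 CPM at 10 h (log2 change -1.69 ± 0.21, adjusted p = 2.53e-06), BMP2 fell from 198 ± 29.5 to 69.8 ± 18.6 CPM (log2 change -1.49 ± 0.21, adjusted p = 9.77e-06), and HBEGF and FGF2 fell too (-1.37 ± 0.21 and -1.10 ± 0.16). BMP4, a ligand of the same receptors as BMP2, had 3.45, 5.01, 4.71 and 1.08 CPM at 5 h and 19.5, 11.5, 26.5 and 18.9 CPM at 10 h (log2 change 2.33 ± 0.38, adjusted p = 8.77e-05), so these ligands changed in opposite directions. TGFB2 (1.09 ± 0.18) and BDNF (0.79 ± 0.20) rose too. In the list of TGF-beta and BMP response genes 5 of 17 fell and 2 rose (median -0.36), beside the same shares of all tested genes. ID1, a direct target of BMP signalling, had 271, 351, 351 and 299.7 CPM at 5 h and 101, 129.7, 161 and 132 CPM at 10 h (log2 change -1.29 ± 0.15, adjusted p = 5.27e-07), and the BMP antagonist GREM1 fell by 0.71 ± 0.17 on the log2 scale. The count of 5 became 3 without the library numbered 2 or 3 at 5 h, or 1 at 10 h. The 2 rises, FSTL3 (0.60 ± 0.20) and BAMBI (0.92 ± 0.32), were both lost without the 5 h library numbered 1 or 3 or the 10 h library numbered 2 or 3, and 1 of them without the 5 h library numbered 2 or the 10 h library numbered 4 (adjusted p up to 0.0953 for FSTL3 and 0.192 for BAMBI).

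The list of ER chaperones and the unfolded protein response was uneven. Of 33 tested members 14 fell and 1 rose (median -0.19). DNAJB9, a co-chaperone that restrains the stress sensor IRE1, had 77.6, 82.2, 102 and 90.9 CPM at 5 h and 15.4, 9.61, 18.7 and 15.3 CPM at 10 h (6.07-fold lower, log2 change -2.60 ± 0.25, adjusted p = 4.12e-08). HERPUD1, of ER-associated degradation, had 200.1, 403, 268 and 253 CPM at 5 h and 38.9, 55.7, 42.1 and 50.4 CPM at 10 h, the 5 h library numbered 2 being highest (log2 change -2.58 ± 0.20, adjusted p = 1.21e-09). SEL1L, an adaptor of the HRD1 ubiquitin ligase, fell by 1.30 ± 0.16 on the log2 scale. HSPA5, the chaperone BiP, had 443, 969, 492 and 502 CPM at 5 h and 138, 385, 149.9 and 282 CPM at 10 h. Both libraries numbered 2 were the highest of their time, and the call (log2 change -1.33 ± 0.43, adjusted p = 0.0413) was lost without the library numbered 2, 3 or 4 at 5 h or 1, 3 or 4 at 10 h (adjusted p up to 0.232 over all alternatives). The chaperones HSP90B1 (0.02 ± 0.15), CALR (-0.09 ± 0.11) and CANX (-0.10 ± 0.10) were not called, and the rise of SSR3 (0.44 ± 0.14) was lost without the library numbered 2 at 5 h, or 1 or 4 at 10 h (adjusted p up to 0.186). The ER stress element, CCAAT followed after 9 bases of any kind by CCACG, was present in 7 of 29 promoters of this list (24.1%) and in 13 of all 7291 (0.178%). Of the 7, HSPA5, XBP1 (-0.72 ± 0.17) and SERP1 (-0.54 ± 0.14) were called lower and CRELD2 (0.41 ± 0.15), CANX, CALR and HSP90B1 were not called. SERP1 was not called without the 5 h library numbered 3 (adjusted p = 0.0665), CRELD2 was called higher in 6 of 18 alternatives, among them RLE factors, DESeq2 and leaving out the 10 h library numbered 1 (adjusted p down to 0.0112), and XBP1 was not called without both libraries numbered 2 and the 10 h library numbered 1 (adjusted p = 0.0748). The element is shown in capitals for HSPA5 and XBP1.
HSPA5 (chr9:125241344-125241443, minus strand): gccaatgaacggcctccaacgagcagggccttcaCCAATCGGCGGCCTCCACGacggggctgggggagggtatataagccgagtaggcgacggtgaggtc
XBP1 (chr22:28800570-28800669, minus strand): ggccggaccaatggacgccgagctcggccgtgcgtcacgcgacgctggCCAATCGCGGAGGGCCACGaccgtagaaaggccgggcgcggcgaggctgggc

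ATF4 and amino acid response genes fell in 10 of 25 tested members and rose in 2 (median -0.39). TRIB3, a pseudokinase induced by ATF4, had 31.1, 50.1, 34.1 and 27.04 CPM at 5 h and 4.10, 3.84, 4.68 and 4.50 CPM at 10 h (8.22-fold lower, log2 change -3.04 ± 0.33, adjusted p = 3.16e-07). DDIT3, the factor CHOP, had 91.4, 131, 144 and 89.8 CPM at 5 h and 18.4, 15.4, 29.7 and 15.3 CPM at 10 h (log2 change -2.59 ± 0.30, adjusted p = 8.29e-07), and DDIT4, an inhibitor of mTORC1, fell from 25.5 ± 7.31 to 6.07 ± 4.79 CPM (log2 change -2.23 ± 0.45, adjusted p = 8.43e-04). The glutamine transporter SLC1A5 (1.45 ± 0.33) and the secreted STC2 (1.09 ± 0.18) rose. The other 13 members were not called. Without both libraries numbered 2 the count of falls was 6, and without the 10 h library numbered 1 as well it was 5. Cytosolic aminoacyl-tRNA synthetases changed in few members, 4 lower and 1 higher of 20 (median -0.08). Of all tested genes 9.56% were lower and 10.1% higher. CARS1, for cysteine, had 259, 342, 258 and 275 CPM at 5 h and 92.2, 108, 120.2 and 96.4 CPM at 10 h (log2 change -1.45 ± 0.17, adjusted p = 8.42e-07), whereas FARSB, for phenylalanine, rose by 0.80 ± 0.16. Without both libraries numbered 2 there were 2 falls, and without the library numbered 1 or 3 at 5 h or 2 at 10 h there were 2 rises.

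Cholesterol synthesis and uptake genes fell in 9 of 23 tested members and rose in 0 (median -0.75). INSIG1, which holds the SREBP transcription factors in the ER, had 60.4, 97.3, 80.1 and 88.7 CPM at 5 h and 12.3, 28.8, 17.2 and 26.1 CPM at 10 h (log2 change -1.93 ± 0.25, adjusted p = 2.88e-06). Of the enzymes, MVD (-1.36 ± 0.20), FDFT1, the squalene synthase (-1.31 ± 0.13), and the sterol demethylase CYP51A1 (-1.29 ± 0.17) fell most. FDFT1 had 323, 444, 378 and 372 CPM at 5 h and 161, 157, 151 and 144 CPM at 10 h, with the 4 values at 10 h close together. HMGCS1 stood at 555 ± 59.5, 169 ± 18.4, 99.8 ± 26.4 and 62.1 ± 14.2 CPM over the 4 times, and so had a lower mean at each later time.

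Genes of quiescence and FOXO factors fell in 10 of 24 tested members and rose in 1 (median -0.79). TCP11L2 fell from 11.3 ± 2.83 to 1.71 ± 1.29 CPM (log2 change -2.72 ± 0.50, adjusted p = 3.07e-04) and YPEL5 fell as well (-1.16 ± 0.22). TXNIP, an arrestin-like inhibitor of glucose uptake, rose instead, with 24.2, 10.03, 20.02 and 20.6 CPM at 5 h and 119, 125, 117 and 128 CPM at 10 h (6.70-fold, log2 change 2.74 ± 0.19, adjusted p = 2.64e-10). Its mean at 0 h had been 631 ± 57.3 CPM, so at 10 h it remained below the starved level. The count of falls was 4 without the 5 h library numbered 2. Among p53 targets 7 of 24 fell and 2 rose (median -0.16), where 9.56% of all tested genes fell and 10.1% rose. The death receptor TNFRSF10B (-1.28 ± 0.22), FDXR (-1.14 ± 0.30) and the cyclin CCNG1 (-1.02 ± 0.23) fell. PLK2, a polo-like kinase, had 888, 557, 830.1 and 846 CPM at 5 h and 2744, 2042, 2292 and 2313 CPM at 10 h (log2 change 1.59 ± 0.14, adjusted p = 1.19e-08), and the translesion polymerase POLH rose by 1.26 ± 0.27. Without both libraries numbered 2 and the 10 h library numbered 1, FDXR (adjusted p = 0.0944) and POLH (adjusted p = 0.0524) were not called. The CDK inhibitor CDKN1A, on both lists, had 65.6, 105, 78.9 and 77.9 CPM at 5 h and 34.8, 67.3, 40.6 and 48.6 CPM at 10 h and fell (log2 change -0.77 ± 0.20, adjusted p = 0.00748), but not without the 5 h library numbered 2 (adjusted p = 0.0671), when 4 of the p53 list were called lower. Without both libraries numbered 2 and the 10 h library numbered 1 3 of that list were called lower.

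Interferon-stimulated genes fell in 11 of 30 tested members and rose in 0 (median -0.50). GBP1, a guanylate-binding protein, had 55.2, 75.2, 100.1 and 63.8 CPM at 5 h and 13.3, 2.88, 6.24 and 3.60 CPM at 10 h (log2 change -3.50 ± 0.35, adjusted p = 8.39e-08). RIGI, the sensor of viral RNA, had 69.01, 76.2, 107 and 98.4 CPM at 5 h and 28.7, 21.1, 23.4 and 30.6 CPM at 10 h (log2 change -1.75 ± 0.23, adjusted p = 4.00e-06), and PARP14 fell by 1.25 ± 0.19 on the log2 scale. Of IRF9, a subunit of the interferon-activated factor ISGF3, the 10 h library numbered 3 stood above the others, with 51.8, 33.1, 35.3 and 32.5 CPM at 5 h and 10.2, 12.5, 31.2 and 9.91 CPM at 10 h (log2 change -1.33 ± 0.31, adjusted p = 0.00369), and its call was lost without both libraries numbered 2 and the 10 h library numbered 1 (adjusted p = 0.0854), when 7 members were called lower.

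In several large groups of housekeeping genes few or no members passed the test. Of 62 cytosolic ribosomal protein genes 0 were called in either direction (median -0.15). At an unadjusted p under 0.05 edgeR gave 2 lower and 0 higher, and DESeq2 called 0. Between the times 4 of the 62 did not overlap, against 22% of all tested genes. With replicate number added to the model 7 of the 62 were called lower. RPS16 had the largest value of the list, 32.8, 98.3, 22.4 and 38.9 CPM at 5 h and 29.7, 474, 62.4 and 251 CPM at 10 h, and overlapping groups (log2 change 2.06 ± 1.12, adjusted p = 0.242), with the 10 h libraries numbered 2 and 4 high. Of 61 nuclear-encoded respiratory chain genes 0 were called (median -0.14), with 5 lower and 1 higher at an unadjusted p under 0.05. DESeq2 called 0, and 1 was called higher without the 10 h library numbered 1. With replicate number added to the model 10 of these genes were called lower and 1 higher. Of 29 proteasome subunits 1 was called higher (PSMD2, 0.61 ± 0.18), and 2 were without the 10 h library numbered 2. Ribosome biogenesis factors rose in 6 of 46 and fell in 2 (median 0.21), where 10.1% of all tested genes rose, and without both libraries numbered 2 and the 10 h library numbered 1 3 rose. NOP56, a core protein of box C/D snoRNPs, had 369, 397, 324 and 398 CPM at 5 h and 559, 619.9, 581 and 649 CPM at 10 h (log2 change 0.69 ± 0.11, adjusted p = 6.17e-05), and MRTO4 rose by 0.72 ± 0.16. Leaving out any single library except the 10 h library numbered 1 lowered the 2 falls to 1 or 0. GAPDH had 3404 ± 333 CPM at 5 h and 3397 ± 432 CPM at 10 h and was not called (adjusted p = 0.989).

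In matrix, cytoskeletal and metabolic lists most members were not called. Except for autophagy and lysosome genes, the counts below lie near the shares of all tested genes called higher (10.1%) and lower (9.56%) or rest on few genes. Of 33 extracellular matrix genes 2 rose, THBS1 and the laminin chain LAMB1 (0.87 ± 0.17), and 1 fell, a count of 0 to 2 when 1 library was left out. Of 13 matrix proteases and inhibitors, ADAMTS1 (0.65 ± 0.17) and ADAMTS15 (2.35 ± 0.51) rose and ADAM17, the sheddase that releases EGF receptor ligands, fell, with 157, 134, 133 and 129 CPM at 5 h and 59.4, 47.1, 46.8 and 57.6 CPM at 10 h (log2 change -1.38 ± 0.15, adjusted p = 2.31e-07). ADAMTS12 fell too (-0.75 ± 0.16). Of 31 cytoskeletal targets of SRF and YAP 3 fell, the calponin CNN3 most (-0.71 ± 0.13), and 1 rose, TGFB2. Without the 5 h library numbered 3 there was 1 fall, and without the 5 h library numbered 4 there were 5. With replicate number added to the model there were 8. Actin ACTB was not called (0.29 ± 0.24). Of 26 glycolysis and hypoxia genes 3 rose and 4 fell, and without both libraries numbered 2 and the 10 h library numbered 1 1 rose. ANGPTL4, an inhibitor of lipoprotein lipase, had 25.9, 40.1, 35.3 and 34.6 CPM at 5 h and 3.07, 2.88, 1.56 and 7.21 CPM at 10 h (8.46-fold lower, log2 change -3.08 ± 0.33, adjusted p = 2.53e-07), NDRG1 fell (-1.88 ± 0.32) and LDHA rose (0.64 ± 0.13). Of 20 autophagy and lysosome genes 6 fell and 0 rose, a larger share of falls than the 9.56% of all tested genes. The count of falls was 3 without any 1 of the 5 h libraries or the library numbered 2 or 4 at 10 h. It was 2 without both libraries numbered 2. SQSTM1, the autophagy receptor p62, had 486, 701, 500.4 and 503 CPM at 5 h and 162, 276, 297 and 194 CPM at 10 h (log2 change -1.25 ± 0.17, adjusted p = 7.16e-06). The clock gene NR1D2 rose from 12.3 ± 3.62 to 26.7 ± 3.50 CPM (log2 change 1.08 ± 0.24, adjusted p = 0.00197).

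**Figure D4:**
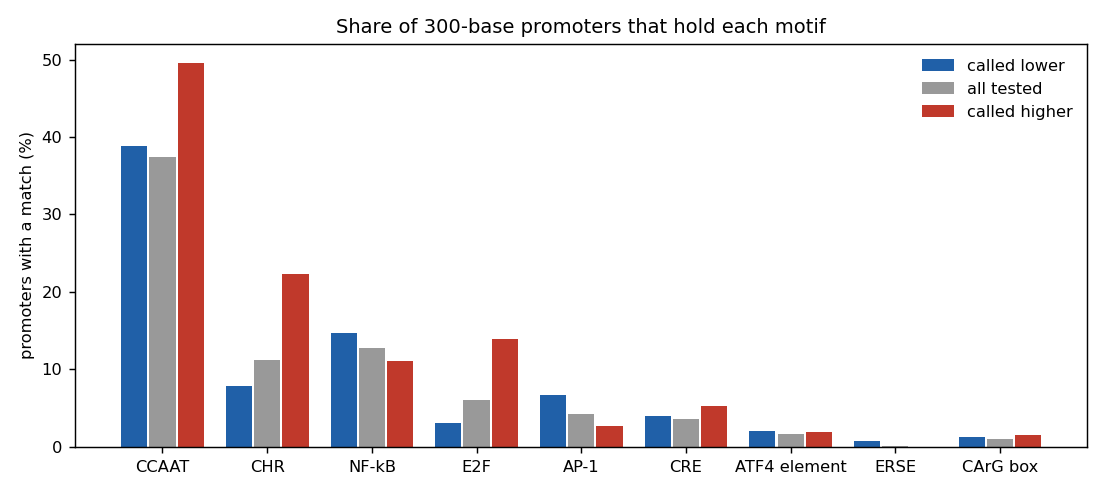
Share of RefSeq promoters, in percent, that hold each of 9 motifs on either strand, for genes called lower (blue), all 7291 tested genes with a promoter (grey) and genes called higher (red). The red bars stand above the grey most for CCAAT, CHR and E2F. The blue bars stand above the grey most for AP-1 and NF-kB, and for ERSE, at low shares, with 0.723% against 0.178%. CRE is the cyclic AMP element and ERSE the ER stress element.

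For the other motifs the shares in genes called higher, called lower and in all were as follows. TGACGTCA, the cyclic AMP element, had 5.23%, 4.05% and 3.63%, the CArG box of SRF 1.48%, 1.30% and 1.08%, and TGATGNAA, the element of ATF4, 1.88%, 2.02% and 1.69%. The ER stress element had 0%, 0.723% and 0.178%, with 5 genes called lower that held it. In the ATF4 list 3 of 20 promoters held TGATGNAA (15.0%). CCAAT is part of the ER stress element, and E2F matches on opposite strands can overlap each other. The promoters cover 7291 of the 8775 tested genes, and of 2139 genes with several promoters the first was used.

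Ribosome footprints, from separate libraries of the same times, gave a second readout of the same genes. In them 61.7% of 10959 tested genes were called, 31% higher and 30.7% lower. Replicates varied less (common biological coefficient of variation 0.0547, against 0.185 in RNA). The footprint libraries were also much deeper, with mean totals of 7.45e+06 at 5 h and 8.21e+06 at 10 h, against 853170 and 949729 in RNA. Numbers of calls in the 2 assays are therefore not on a like footing, and the part of depth was not tested. Of the 887 genes higher in RNA 871 were also called higher in footprints (98.2%) and 0 lower, where 34.1% of all 8736 genes tested in both were called higher. Of 837 genes lower in RNA 788 were lower in footprints (94.1%) and 2 higher, where 31.3% of all were lower. Taken the other way, genes higher in RNA made up 29.2% of those higher in footprints, and genes lower in RNA 28.9% of those lower.

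**Figure D5:**
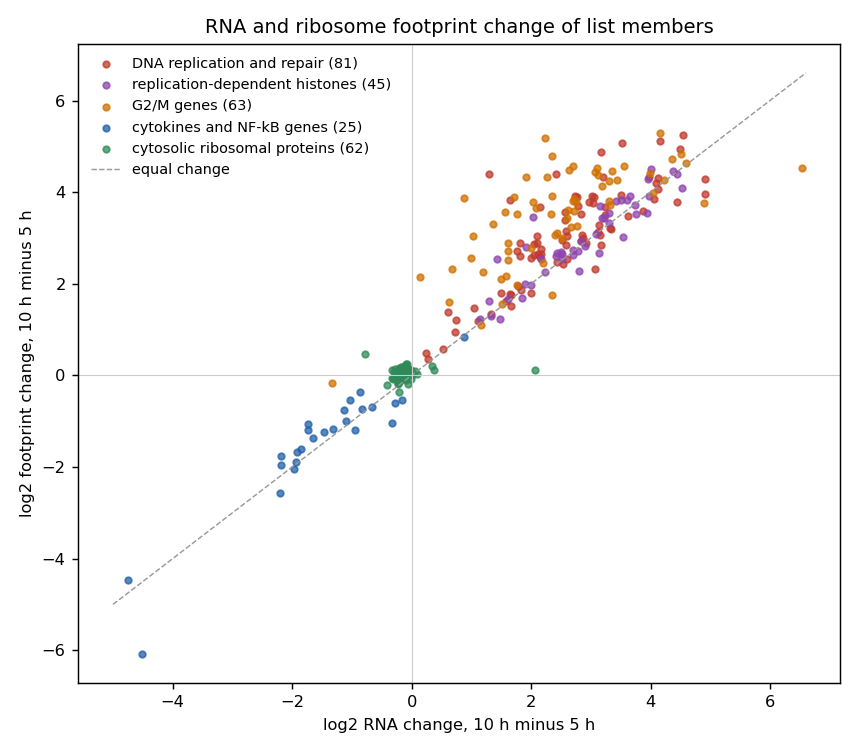
Log2 change from 5 h to 10 h in RNA (horizontal axis) and in ribosome footprints (vertical axis) for members of 5 groups of lists, the number plotted in brackets, with a dashed line of equal change. Replication, histone and mitotic genes lie at the upper right, cytokine and NF-kB genes at the lower left, and ribosomal protein genes near 0.

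By list the footprint medians were close to those of RNA for histones (2.86 against 2.83) and licensing (3.13 against 2.997). They were larger for G2/M genes, 3.72 against 2.39, and for repair genes, 3.76 against 2.58. MKI67, for example, changed by 4.58 ± 0.16 in footprints and 2.71 ± 0.36 in RNA. Of the 63 G2/M genes 62 were called higher in footprints, 5 more than in the shallower RNA libraries. CXCL8 changed by -4.46 ± 0.17 in footprints and -4.74 ± 0.20 in RNA, and IL6 by -6.08 ± 0.15 and -4.52 ± 0.40. Whether footprint and RNA changes differed was not tested here.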

How the data were processed

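RNA and ribosome footprints of RPE-1 cells were counted per gene. Per the submitters' processing notes the tools were STAR 2.5.4a and featureCounts 1.5.1 on build GRCh38. The authors deposited raw read counts per gene with a length for each, 96.5% of the lengths being multiples of 3, that is coding lengths. The annotation, the use of strand, and the handling of molecular identifiers and multiply mapped reads are not given in the sources used here, so overlapping and near-identical genes are uncertain. Of 19023 identifiers 18905 matched a symbol in the reference gene names.

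From these counts edgeR 4.0.16 (R 4.3.3, limma 3.58.1) fitted a robust quasi-likelihood model by time to all 16 RNA libraries, so that the times share 1 estimate of the spread, and a second model to the 16 footprint libraries. Genes passed filterByExpr by time (defaults, minimum count 10), TMM factors scaled the libraries, and the contrast was 10 h minus 5 h, two-sided, with Benjamini-Hochberg adjustment over all genes tested. A list member that passed the filter only through 1 high group had to differ. Of 1142 listed genes 869 were tested, and lists are described by counts and medians with no set test. The members and the 36 gene lists were chosen with earlier results of these data known. Genes named were the 15 largest called rises and falls with a mean of at least 10 CPM and no overlap, fixed genes, and in each list up to 4 called members per direction with the largest change and at least 10 CPM. Members named beyond this rule were chosen after their values were seen. A gene with 3 or fewer counts over a group gets no fold. A few genes are left out of the text. Alternatives were RLE and upper-quartile factors, DESeq2 1.42.0, no or a stricter filter, only the 8 libraries compared, a replicate block, each library left out, and, chosen after seeing the data, the libraries that stood apart left out together. Promoters are RefSeq's, build GRCh38.p14. With 595851 to 1107470 counts a library, 1 count was worth about 1 to 2 CPM, which limits the precision of low genes.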

Additional observations from a re-analysis of the deposited data

Results flagged for a closer look

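In 22 of 350 groups of 4 libraries checked (6.29%) 1 library lay apart from the other 3 by Dixon's test at its 95% critical value, where chance gives about 1 in 20. The 5 h library numbered 2 made up 7 of them, with values of 2270 CPM for ACTB, 969 for HSPA5, 128 for NFKB2, 349 for POLD2 and 701 for SQSTM1, each above the others, and 120 for CPSF2 and 556 for SSR3, each below them. The 5 h library numbered 1 was low for BIRC3 (27.6 CPM) and JUN (22.4) and high for E2F1 (62.1), EXO1 (18.98) and IRF9 (51.8), and the 5 h library numbered 3 was low for STC2 (260.2). At 10 h the library numbered 1 was high for UBE2T (223) and FANCD2 (100.4), number 2 high for TYMS (69.2) and low for TGFB2 (73.0) and WRN (66.3), number 3 high for IRF9 (31.2) and TEK (68.7), and number 4 high for DUSP5 (23.4) and SEL1L (125).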

How the results depend on the processing

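The counts of 887 genes higher and 839 lower stayed within 1.5 times under RLE factors (965 and 710), upper-quartile factors (870 and 896), DESeq2 (943 and 686), no filter (939 and 613), a stricter filter (828 and 661) and only the 8 libraries compared (860 and 601). Replicate numbers paired the samples at most in part: the correlations of same-numbered deviations were 0.22, 0.57, 0.00060 and 0.099. The 5 h libraries numbered 1 and 2 correlated best with the 10 h library of their own number. Those numbered 3 and 4 correlated best with the 10 h library numbered 1. What a number shares is not given in the labels. With the replicate block 1178 genes were called higher and 1275 lower, among them 7 ribosomal protein genes, 10 respiratory chain genes and 8 SRF and YAP targets lower and 12 ribosome biogenesis genes higher. CCND1, CRELD2, FOXM1, MYC and RPA3 gained a call under it (adjusted p 0.0138, 0.0112, 0.0137, 0.0338 and 0.00255). With 1 library left out the counts ran from 783 to 927 higher and from 527 to 732 lower. Without both libraries numbered 2 there were 519 lower, and without these and the 10 h library numbered 1 there were 469 lower, the last with fewer libraries. Footprint counts of 3396 higher and 3366 lower became 3435 and 3412 with the replicate block and 2725 and 4225 with upper-quartile factors. Genes that were not called changed sign. GAPDH was at 0.041 under RLE factors, 0.040 under DESeq2, 0.054 with no filter, 0.034 with the stricter filter, 0.036 with 8 libraries, -0.061 to 0.13 with 1 library left out, 0.081 without both libraries numbered 2 and 0.12 without 3 libraries. TBP was at -0.40 without 3 libraries. With 1 library left out CALR ran from -0.11 to 0.019, CANX from -0.17 to 0.0051, FOSL1 from -0.12 to 0.82, HSP90B1 from -0.068 to 0.19 (-0.057 without 3 libraries), KRT8 from -0.27 to 0.043, ORC4 from -0.55 to 0.0090 and TEK from -0.019 to 0.48. In promoters from 100 bases before to 50 after the start, shares in all genes, in those called higher and in those called lower were 3.03%, 9.93% and 1.45% for E2F, 4.48%, 15.4% and 2.89% for CHR, 24.5%, 37.6% and 24.1% for CCAAT, 6.28%, 4.70% and 10.3% for NF-kB, and 2.10%, 1.21% and 3.03% for AP-1. They were 2.67% in all and 3.22% in those called higher for the cyclic AMP element and 0.782% and 0.805% for the ATF4 element, and in all genes 0.0823% for the ER stress element and 0.617% for the CArG box. The cause of these changes was not tested, other than that a shorter window holds fewer matches.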
